A study of Mus musculus with 1 sample.

Results

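The mitochondrial genome of the mouse, named chromosome M in the reference, carries 37 genes, and their RNA was examined in c-kit+ bone marrow (BM) cells of Ctrl mice. The members were chosen by name, as all genes whose GENCODE M21 symbol begins with mt-, and all 37 were found among the 54532 Ensembl genes of the deposited table. They comprise 13 protein-coding genes, 2 ribosomal RNA (rRNA) genes and 22 transfer RNA (tRNA) genes. The cells came from C57BL/6 mice of wild-type genotype, and c-kit is the receptor of stem cell factor on hematopoietic stem and progenitor cells. The labels describe the sort as lineage-negative, c-kit+ and Sca1-, and they do not give the age or the number of mice. The data are 1 library without replicates, and the *Gadd45g*-deficient mice with MPN were not analysed here. Therefore no group was compared with another and no value has an error between mice.

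The protein-coding genes of this genome specify core subunits of complexes I, III, IV and V of oxidative phosphorylation, the system that makes ATP in the inner mitochondrial membrane. All other subunits of these complexes, and all of complex II, are encoded in the nucleus. The genome is compact and is read from both strands as long precursor RNAs, in which tRNAs lie between most of the longer genes and mark where the precursor is cut. The mRNAs then receive poly(A) tails, while the rRNAs and tRNAs serve the ribosomes inside mitochondria. Maturing red cells are known to discard their mitochondria.

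The values are FPKM, fragments on a gene scaled to the length of the gene and to the size of the library. For 96.4% of genes above 0, the FPKM value times the gene's exon length was a whole multiple of a common step, within 0.01. The step is read here as 1 fragment, and the multiple was whole for all 37 members. The multiples, rounded where they were not whole, are called recovered fragments, and they summed to 17113323 over the table. This sum exceeds the library total of 15783890 that the size of 1 fragment implies, so shares of it are approximate. The 95% Wilson intervals given with levels hold counting error alone. They assume independent fragments, which PCR duplicates are not. A level of 1 FPKM was taken as detected. The progenitor marker *Kit* was at 7.17 FPKM, and markers of mature marrow cells were present as well, although the label names a lineage-negative sort. All 4 red cell genes, 4 neutrophil genes, 3 B cell genes and 3 T cell genes examined reached 1 FPKM, with medians of 7739, 8546, 173 and 3.85 FPKM. Fewer cells of a type and less RNA per cell cannot be told apart in such a library, and which cells gave the mitochondrial RNA was not tested.

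Some stretches of sequence are shown first, because they bear on how fragments can be assigned to these genes. The 43 bases shared by *mt-Atp8* and *mt-Atp6*, on the forward strand of GRCm38 at chrM:7927-7969, hold the start codon of the second gene and the stop codon of the first, both in capitals.

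mt-Atp8/mt-Atp6: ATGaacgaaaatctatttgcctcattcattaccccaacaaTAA

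Of the 13 protein-coding genes, 10 end in a complete stop codon and 3 end in a lone T, which the poly(A) tail turns into the codon TAA. The latter are *mt-Co3*, *mt-Nd4* and *mt-Cytb*. The last bases of *mt-Co1*, which has a full stop codon, and of *mt-Cytb*, which has not, are printed to show the difference, with the final codon or its remnant in capitals.

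mt-Co1: acctatgtaaaagtaaaaTAA

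mt-Cytb: atactaaaattatatccaT

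Parts of this genome also exist as copies in the nucleus. Annotated nuclear transcripts were aligned to the 37 genes, and 16 genes of the table matched over at least 100 bases with at least 90% identity. All 16 are annotated as pseudogenes. A block of 7 of them was at least 99% identical to genes of chromosome M, and it occupies chr1:24611535-24616197 of GRCm38, reverse strand. In this block 5 copies had no mismatch in the aligned bases, and the other 2 had 1 each. The substitutions were A1066T in *Gm29216*, with the base of *mt-Co1* first, and T3C in *Gm28438*, with the base of *mt-Nd3* first, each counted from 1 at the 5′ end of the mitochondrial gene. The stretches around them are given with the differing base in capitals.

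mt-Co1: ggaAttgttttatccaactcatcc

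Gm29216: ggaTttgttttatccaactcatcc

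mt-Nd3: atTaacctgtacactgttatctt

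Gm28438: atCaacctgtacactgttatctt

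The aligned bases run from position 6390 of chromosome M, within *mt-Co1*, to position 11042, within *mt-Nd4*. The copies follow each other in the same order and spacing as the mitochondrial genes, to within 1 base. Between *Gm10925* and *Gm28661* lie 233 bases of chromosome 1 without an annotated gene, at the place that *mt-Tk* and most of *mt-Atp8* hold on chromosome M. The sequence of those bases was not examined. Fragments from bases aligned without a mismatch match both genomes, so the levels of the genes with such copies are uncertain. For *mt-Atp8* and the 5 tRNA genes between the ends of the block no copy of at least 100 aligned bases was found. They are placed there by position. The tRNA genes, at most 75 bases long, could not reach that length. The 43 bases that *mt-Atp8* shares with *mt-Atp6* lie in the stretch of *mt-Atp6* aligned to *Gm10925*. How fragments with several matches were treated is not given in the sources used here.

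The 37 genes together held 328105 recovered fragments, which is 1.92% of all recovered fragments (95% Wilson interval, 1.91% to 1.92%). Over genes with a whole multiple alone the share was 2.06%, a difference that the interval does not cover. All 13 protein-coding genes and both rRNA genes reached 1 FPKM, as did 15 of the 22 tRNA genes. Over all genes 22.2% reached that level, and among nuclear and mitochondrial protein-coding genes 46.8% did. The protein-coding genes took 91.4% of the mitochondrial fragments (91.3% to 91.5%) while covering 73.8% of the summed gene length. The rRNA genes took 8.31% (8.22% to 8.41%) with 16.4% of the length, and the tRNA genes took 0.281% (0.263% to 0.300%) with 9.72% of the length. Per 100 bases this was 2630 fragments for protein-coding genes, 1075 for rRNA genes and 61.4 for tRNA genes. In summed FPKM, where each short tRNA gene weighs as much as a long gene at the same level, the tRNA share was 5.09%.

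**Figure D1:**
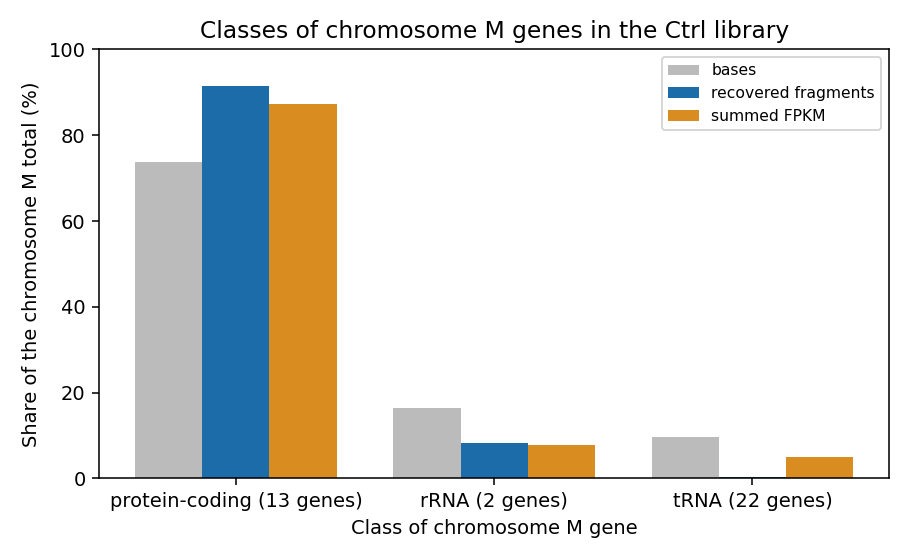
Share of the chromosome M total held by each class of gene, in percent of the summed gene length (grey), of recovered fragments (blue) and of summed FPKM (orange), in the Ctrl library. Protein-coding genes hold 91.4% of the fragments on 73.8% of the length, and tRNA genes hold 0.281% of the fragments on 9.72% of the length.

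Among the protein-coding genes the levels ran from 3.42 to 6379 FPKM with a median of 443 FPKM. *mt-Co1*, the catalytic subunit of cytochrome c oxidase (complex IV), was the highest at 6379 FPKM (6347 to 6410) from 155551 fragments. It ranked 7 among all genes of the table and held 0.909% of all recovered fragments by itself, and 47.4% of the mitochondrial fragments. *mt-Cytb*, the cytochrome b of complex III, followed at 2705 FPKM (2681 to 2729). *mt-Co1* was thus 2.36 times *mt-Cytb* (counting interval, 2.33 to 2.38). *mt-Cytb* ranked 13 among all genes.

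The subunits of NADH dehydrogenase (complex I) spread over a wide range. *mt-Nd1* was at 2059 FPKM (2037 to 2082) and *mt-Nd2* at 1214 FPKM (1197 to 1231). *mt-Nd4* was at 801 FPKM (790 to 813) and *mt-Nd5* at 610 FPKM (601 to 619). Among these 4 genes of the forward strand, each was lower than the one before it on the chromosome. The short genes *mt-Nd3* and *mt-Nd4l*, which lie between *mt-Nd2* and *mt-Nd5*, were lower than all 4. The place of *mt-Nd4* in this order is uncertain, as 63.6% of its length is copied on chromosome 1. Its level was 830 FPKM with the fragments of the copy added. If all its fragments lay on the bases without a copy, the level there would be 2200 FPKM, above *mt-Nd1*. *mt-Nd3* had 41.1 FPKM (36.1 to 46.9) from 226 fragments, and *mt-Nd4l* had 51.0 FPKM (44.9 to 57.9) from 239 fragments.

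*mt-Nd6* is the sole protein-coding gene on the reverse strand, and its composition is the mirror of the others, with 28.1% G and 5.97% C in the coding strand. In the other 12 the share of G ran from 5.88% to 16.1% and that of C from 22.1% to 30.0%. *mt-Nd6* was at 443 FPKM (429 to 457) from 3627 fragments, and *mt-Nd5*, whose end overlaps it by 14 bases on the opposite strand, was 1.38 times as high (1.33 to 1.43). Whether the fragments were counted by strand is not given in the sources used here. Without strand, RNA of *mt-Nd6* and RNA of the opposite strand at the same place cannot be told apart.

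The remaining genes were those of complexes IV and V that lie after *mt-Co1*. *mt-Co2* and *mt-Co3*, the other mitochondrially encoded subunits of cytochrome c oxidase, were at 216 FPKM (208 to 225) and 125 FPKM (119 to 132). *mt-Co1* was 29.5 times *mt-Co2* and 50.8 times *mt-Co3*, although the products of the 3 genes join the same enzyme. These ratios are uncertain, as *mt-Co2* and *mt-Co3* are copied on chromosome 1 over 99.6% and 99.9% of their length. With the fragments of the copies added, *mt-Co1*, *mt-Co2* and *mt-Co3* were at 6474, 436 and 283 FPKM. *mt-Atp6*, which helps form the proton channel of ATP synthase, was at 143 FPKM (136 to 151). *mt-Atp8*, a small membrane subunit of the same enzyme, was the lowest of the 13, at 3.42 FPKM (1.91 to 6.12) from 11 fragments. *mt-Atp6* was 42.0 times *mt-Atp8* (23.2 to 75.9), and 43 of the 204 bases of *mt-Atp8* are the overlap printed above. How fragments on bases shared by 2 genes were counted is not given in the sources used here, so this ratio is uncertain. When the 13 genes were put in order of their level, none of the 12 neighbouring pairs had a ratio whose counting interval included 1. The pairs were formed from these same levels, and the intervals hold counting error alone. For the genes with copies on chromosome 1 the order is therefore not settled. The smallest ratio was that of *mt-Atp6* to *mt-Co3*, at 1.14 (1.06 to 1.23), and the interval nearest to 1 was that of *mt-Nd4l* to *mt-Nd3*, at 1.24 (1.03 to 1.49). Across the 13 genes Spearman's rho of gene length and level was 0.82, a description over genes of 1 library that also share their precursor RNAs. Protein-coding genes wholly inside the block copied on chromosome 1 are 204 to 784 bases long, and those wholly outside 519 to 1824 bases. Length and place in the block were not told apart.

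**Figure D2:**
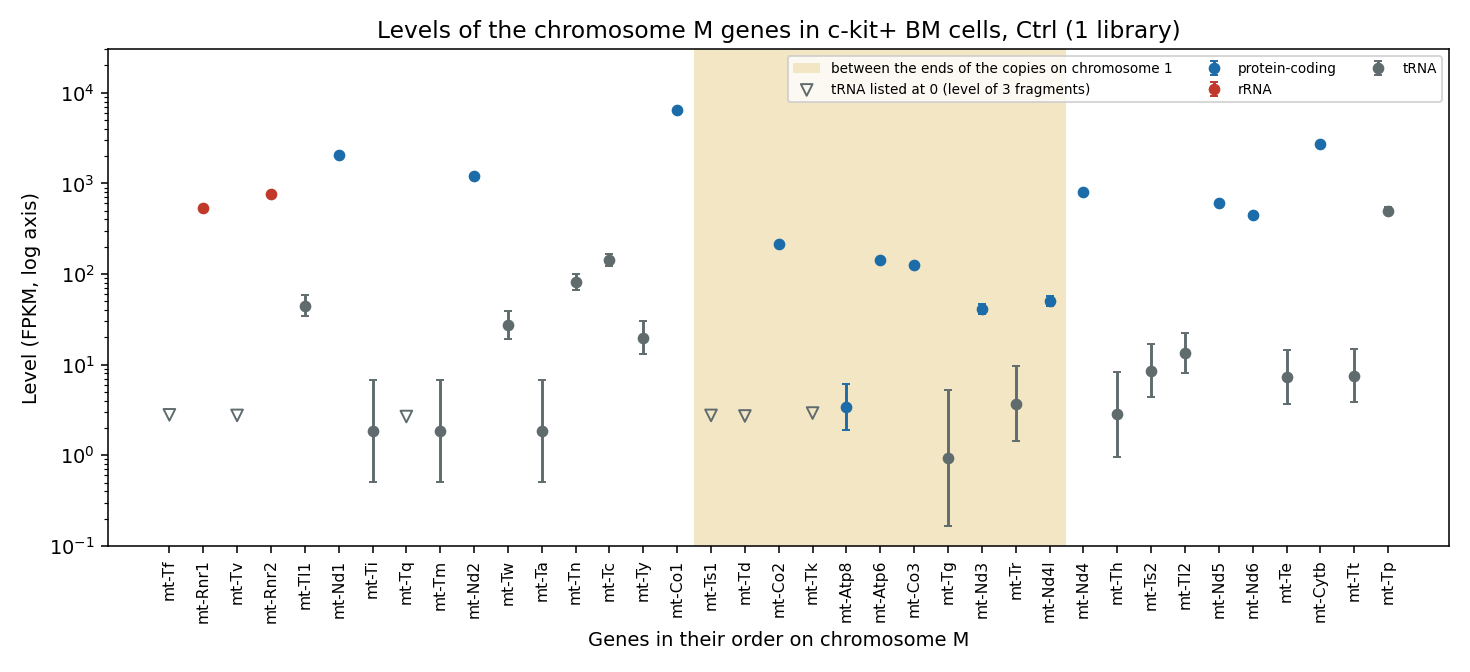
Level of each of the 37 genes in FPKM on a log axis, in their order on chromosome M, with 95% Wilson intervals of counting error and 6 tRNA genes listed at 0 drawn as open triangles at the level of 3 fragments. The shaded genes lie between the ends of the stretch copied on chromosome 1. Their protein-coding members are listed at 3.42 to 216 FPKM, below the 443 to 2705 FPKM of protein-coding genes wholly outside it. Levels of genes with copies are uncertain.

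The listed levels of protein-coding genes wholly between the ends of the copied stretch and of those wholly outside it did not overlap. The levels inside are uncertain, as 5 of the 6 genes are copied over at least 90% of their length. The 6 protein-coding genes wholly inside, *mt-Co2*, *mt-Atp8*, *mt-Atp6*, *mt-Co3*, *mt-Nd3* and *mt-Nd4l*, ran from 3.42 to 216 FPKM with a median of 88.2 FPKM. The 5 wholly outside, *mt-Nd1*, *mt-Nd2*, *mt-Nd5*, *mt-Nd6* and *mt-Cytb*, ran from 443 to 2705 FPKM with a median of 1214 FPKM. The 2 rRNA genes, also outside, had levels within this range. *mt-Co1* and *mt-Nd4* lie partly inside, with 31.3% and 63.6% of their length in the copy. If all their fragments lay on the bases without a copy, the levels over those bases would be 9280 FPKM for *mt-Co1* and 2200 FPKM for *mt-Nd4*.

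Where a mitochondrial gene is copied over at least 90% of its length, the pseudogene carried a number of fragments of the same order, and 5 genes are of this kind. *Gm28661* had 2374 fragments against 2337 for *mt-Co2*, a ratio of 1.02 with a counting interval of 0.959 to 1.08. *Gm10925* had 2301 fragments against 1541 for *mt-Atp6*, a ratio of 1.49 (1.40 to 1.59), and *Gm28437* had 1953 against 1553 for *mt-Co3*, a ratio of 1.26 (1.18 to 1.34). These 2 copies thus held more fragments than the genes they resemble. *Gm10222* had 211 against 239 for *mt-Nd4l*, a ratio of 0.883 (0.734 to 1.06), and *Gm28438* had 195 against 226 for *mt-Nd3*, a ratio of 0.863 (0.713 to 1.04).

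Where a mitochondrial gene is copied only in part, its copy held few fragments beside those of the whole gene. *Gm29216* had 2336 fragments against 155551 for *mt-Co1*, and *Gm28439* had 613 against 17429 for *mt-Nd4*. These copies align over 483 of the 1545 bases of *mt-Co1* and 876 of the 1378 bases of *mt-Nd4*. How many fragments of the 2 genes lay on those bases is not known. The 7 copies together held 9983 fragments. Of the 9 less similar pseudogenes, *Gm13340* on chromosome 2, which is 97.6% identical to *mt-Co1* over 1545 bases, had 49 fragments, *Gm13341* had 4, and the other 7 were listed at 0. With the fragments of the 7 copies added, *mt-Co2* came to 436 FPKM, *mt-Atp6* to 357, *mt-Co3* to 283, *mt-Nd4l* to 96.0 and *mt-Nd3* to 76.6 FPKM. The lowest protein-coding gene outside the stretch, *mt-Nd6*, was at 443 FPKM with an interval of 429 to 457, which holds the sum for *mt-Co2* and lies above the other 4 sums. *mt-Atp8* has no annotated copy of its own, so nothing was added to its 11 fragments. The part of the copies in the low levels was not tested.

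**Figure D3:**
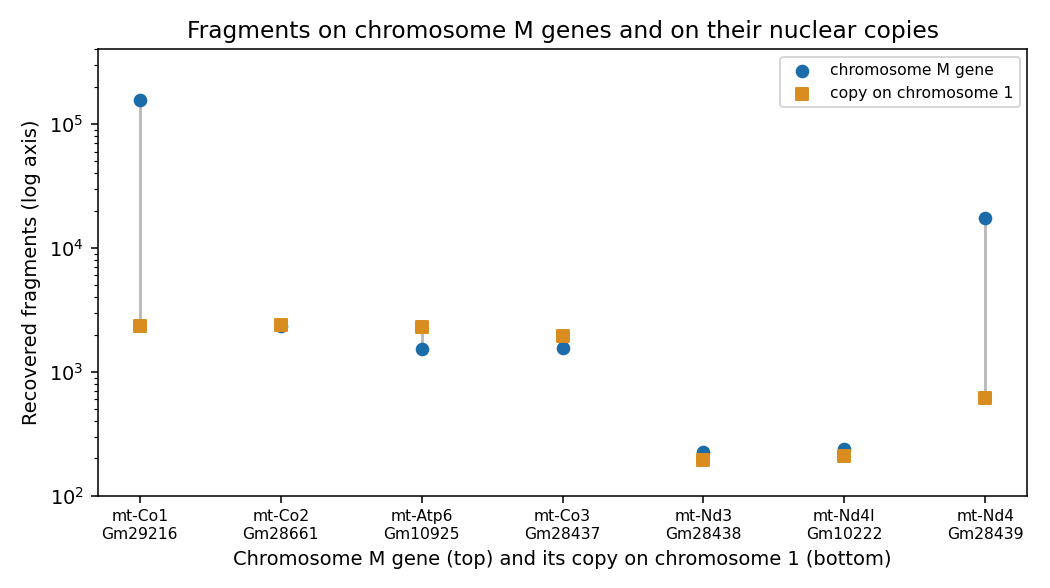
Recovered fragments on a log axis for 7 protein-coding genes of chromosome M (blue circles) and for their copies on chromosome 1 of at least 99% identity (orange squares), in the order of chromosome M. *Gm28661* with 2374 fragments and *mt-Co2* with 2337 nearly coincide, while *mt-Co1*, copied only in part, with 155551 lies far above *Gm29216* with 2336.

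The rRNAs of the mitochondrial ribosome were lower than the most abundant mRNAs. *mt-Rnr2*, which encodes the 16S RNA of the large subunit, was at 767 FPKM (756 to 778) from 19159 fragments. *mt-Rnr1*, which encodes the 12S RNA of the small subunit, was at 538 FPKM (527 to 550) from 8111 fragments. *mt-Rnr2* was 1.43 times *mt-Rnr1* per length (1.39 to 1.46), although both are used in equal number in a ribosome. *mt-Co1* was 8.31 times *mt-Rnr2*, and the rRNA genes together had 0.0909 fragments for each fragment on a protein-coding gene. How RNA was selected for the library is not given in the sources used here. Of 10 nuclear RNAs known to lack a poly(A) tail, 8 were listed at 0. Over all 54532 genes of the table only 21322 were above 0, and the 10 RNAs are just 102 to 423 bases long. *Rn7sk*, which restrains transcription elongation, was at 1.72 FPKM from 9 fragments, and *Terc*, the RNA of telomerase, was at 0.899 FPKM from 6. The part of RNA selection in the levels of mitochondrial rRNAs and tRNAs was not tested.

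The tRNA genes were the lowest class, with a median of 3.28 FPKM and 922 fragments in all. They are 59 to 75 bases long, so that 1 fragment alone gives 0.845 to 1.07 FPKM. Of the 22 genes 16 had at least 1 fragment and 11 had more than 3. *mt-Tp*, the tRNA for proline, was far above the rest at 497 FPKM (457 to 542) from 526 fragments, or 57.0% of all tRNA fragments. *mt-Tc*, for cysteine, was at 143 FPKM (122 to 168) from 149 fragments, and *mt-Tn*, for asparagine, at 81.2 FPKM (66.1 to 99.7) from 91. These 3 genes held 83.1% of the tRNA fragments. They are printed with *mt-Tf*, the tRNA for phenylalanine, which was listed at 0, because these 4 genes border the longest unannotated stretches of the genome. The anticodon, which pairs with the codon of the mRNA, is in capitals.

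mt-Tp: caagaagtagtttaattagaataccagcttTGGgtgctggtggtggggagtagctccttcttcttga

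mt-Tc: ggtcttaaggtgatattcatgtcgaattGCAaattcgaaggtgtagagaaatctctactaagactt

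mt-Tn: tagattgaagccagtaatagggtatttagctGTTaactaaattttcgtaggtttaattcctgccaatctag

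mt-Tf: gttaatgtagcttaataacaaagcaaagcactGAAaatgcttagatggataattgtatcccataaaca

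*mt-Tn* and *mt-Tc* lie on the reverse strand at chrM:5089-5159 and chrM:5192-5257, and the 32 bases between them, where replication of the light strand is known to start, carry no annotated gene. *mt-Tp*, at chrM:15356-15422 on the reverse strand, is the last annotated gene before the control region. *mt-Tf*, at chrM:1-68 on the forward strand, lies on the other side of that region, and its count of 0 allows up to 2.80 FPKM at 3 fragments. The other 18 tRNA genes have at most 5 unannotated bases on either side, and they held 156 fragments in all. Their highest were *mt-Tl1*, a leucine tRNA, at 44.8 FPKM from 53 fragments and *mt-Tw*, for tryptophan, at 27.4 FPKM from 29.

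The 8 tRNA genes on the reverse strand held 797 fragments, 86.4% of the tRNA total (84.1% to 88.5%), and the 14 on the forward strand held 125. In the reverse group *mt-Ty* had 21 fragments, *mt-Te* 8 and *mt-Ta* 2, while *mt-Tq* and *mt-Ts1* were listed at 0. The difference between the groups therefore rested on *mt-Tp*, *mt-Tc* and *mt-Tn*. The groups go by the annotated strand of the gene. As with *mt-Nd6*, if fragments were not counted by strand, RNA of the opposite strand at these places cannot be told apart. In the forward group *mt-Tl2* had 15 fragments, *mt-Ts2* and *mt-Tt* 8 each, *mt-Tr* 4, *mt-Th* 3, *mt-Ti* and *mt-Tm* 2 each, *mt-Tg* 1, and *mt-Tv*, *mt-Td* and *mt-Tk* were at 0 beside *mt-Tf*. The 5 tRNA genes that lie between the ends of the copied stretch, too short for the search of copies, had 5 fragments in all, against 917 for the 17 outside it. For a tRNA listed at 0, the 3 fragments that a count of 0 allows equal 2.68 to 2.92 FPKM, depending on length. Why these counts were 0 was not tested.

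Levels of mitochondrially encoded and nuclear-encoded subunits were then set side by side for each complex. In complex I the 7 mitochondrial genes had a median of 610 FPKM, 25.3 times the median of 24.1 FPKM over 36 nuclear genes, and 50.3 times without genes that share bases with another. Of the 7, 5 lay above *Ndufb11*, the highest nuclear subunit at 102 FPKM, and none lay below the nuclear median. In complex III *mt-Cytb* was 55.4 times the median of 48.8 FPKM over 9 nuclear genes, whose highest was *Uqcr10* at 77.2 FPKM. For fragments not divided by length this ratio was 33.5. In complex IV the median of 3 mitochondrial genes was 216 FPKM, 3.79 times the 57.1 FPKM over 10 nuclear genes. This ratio was 57.7 without *mt-Co3*, which shares a base with *mt-Atp6*, 7.64 with the fragments of the copies added and 1.98 for fragments not divided by length. Only *mt-Co1* exceeded *Cox8a*, the highest of those at 291 FPKM. In complex V the median of *mt-Atp6* and *mt-Atp8* was 73.4 FPKM, 1.33 times the 55.2 FPKM over 15 nuclear genes. The ratio was 3.27 with the fragments of the copies added and 0.532 for fragments not divided by length. The median stands for 2 genes far apart, as *mt-Atp8* at 3.42 FPKM lay below all 15 nuclear genes, whose lowest was *Atp5g1* at 9.13 FPKM. *Atp5b*, which encodes the catalytic beta subunit and was the highest of the 15 at 228 FPKM, was above both. Between the ends of the copied stretch lie 2 of 7 mitochondrial genes of complex I, none of complex III, 2 of 3 of complex IV and both of complex V. Its part in the order of the complexes was not tested. Nuclear genes were scaled to the joint length of all their annotated exons, which can exceed that of any transcript present.

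**Figure D4:**
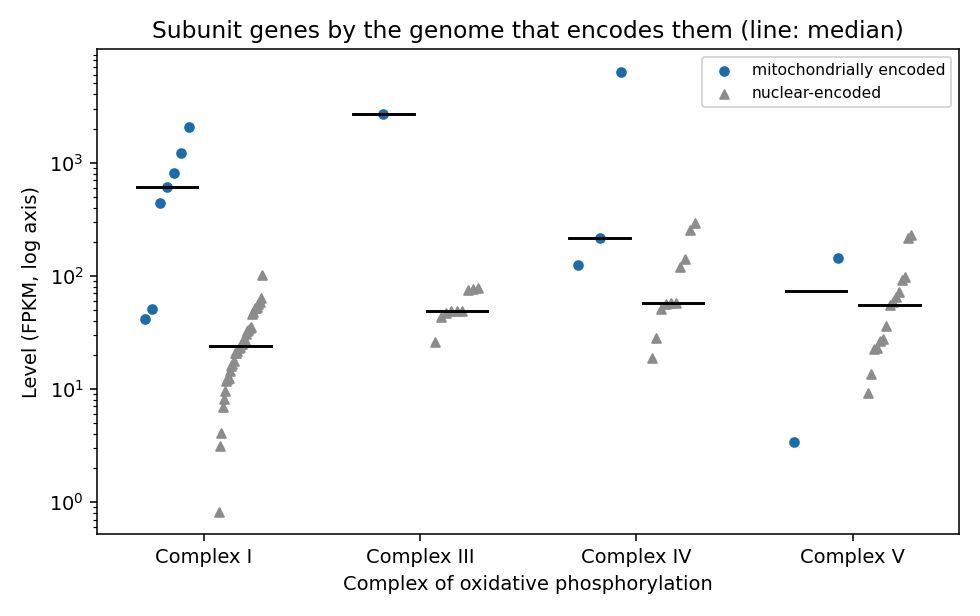
Level in FPKM on a log axis of each subunit gene of complexes I, III, IV and V, encoded in mitochondria (blue circles) or in the nucleus (grey triangles), with lines at the medians. In complexes I and III the mitochondrial medians of 610 and 2705 FPKM lie above all nuclear genes, and in complex V the median of 73.4 FPKM lies within the nuclear range of 9.13 to 228 FPKM.

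Nuclear genes whose proteins copy, read and process the mitochondrial genome ran from 0.265 to 27.8 FPKM. All of them lay below the other 12 mitochondrial mRNAs and both rRNAs, but many lay above *mt-Atp8* and above the tRNA median of 3.28 FPKM. Of 9 genes for mitochondrial transcription 7 reached 1 FPKM, with a median of 2.66 FPKM. *Tfam*, which packs the genome and opens its promoters, was the highest at 7.68 FPKM (7.06 to 8.36). *Polrmt*, the mitochondrial RNA polymerase, was at 5.37 FPKM, and *Mterf2* was the lowest at 0.904 FPKM. Of 18 genes for RNA processing and decay 17 reached 1 FPKM, with a median of 7.64 FPKM. *Hsd17b10*, a subunit of the nuclease complex that frees the 5′ ends of tRNAs, was the highest at 27.8 FPKM, and *Elac2*, the nuclease that frees their 3′ ends, was at 8.45 FPKM. *Lrpprc*, which stabilizes mitochondrial mRNAs, was at 7.34 FPKM, while its partner *Slirp* was the lowest at 0.265 FPKM from 13 fragments. All 7 genes for replication reached 1 FPKM. They ran from *Primpol* at 2.49 FPKM to *Polg*, the catalytic subunit of the DNA polymerase, at 10.7 FPKM.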

How the data were processed

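The deposited table holds FPKM for 1 library of c-kit+ BM cells from Ctrl mice, prepared by Illumina protocols from total RNA per the labels. According to the submitters' processing notes, the authors used HISAT2 2.0.5, featureCounts 1.5.0-p3 and the build mm10. The annotation, strand setting, RNA selection and treatment of fragments with several matches are not given in the sources used here. No value was converted from another build, as GENCODE M21 on GRCm38 has the coordinates of mm10.

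Exon lengths from GENCODE M21 turned FPKM into recovered fragments, whose multiples were whole within 0.01 for 96.4% of genes above 0, and recovery was tested on simulated data. They sum to 17113323, above the total of 15783890 that the size of 1 fragment implies, and 37 identifiers had no match. Nuclear copies were sought with blastn 2.17.0 among GENCODE transcripts (90% identity, 100 bases), and 1 further aligned gene is not in the table. Sequences are GENCODE transcripts. Symbols absent from GENCODE were matched through RefSeq synonyms.

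The named genes are all members, the highest and lowest genes and others of lists of subunits, of genes for mitochondrial DNA and RNA, of RNAs without a poly(A) tail and of cell markers, and the nuclear copies. Members and lists were chosen with earlier results of these data known. With 1 library no test was made. The alternatives changed the scaling, gene length, detection minimum and the genes included. Python 3.11.15 with pandas 2.3.3, numpy 2.4.6, scipy 1.17.1, Biopython 1.88 and matplotlib 3.10.9 was used.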

Additional observations from a re-analysis of the deposited data

How the results depend on the processing

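No paired analysis was possible because only 1 library was analysed, with no replicate number. The alternatives that leave out genes with a near-identical nuclear copy, that add the fragments of copies to single genes or that leave out *mt-Tp* were chosen after seeing the data. The median of the 13 protein-coding genes, 443 FPKM, was 483 without the 10 most abundant genes in the total, 1637 without genes that share bases with another protein-coding gene, 912 without genes that have a nuclear copy of at least 99% identity and 318 as a geometric mean with a pseudocount of 1 FPKM. The ratio of the highest to the lowest of them, 1867, was 155 without overlapping genes, 792 without genes with a copy of at least 99% identity and 14141 for fragments not divided by length. Both the 912 FPKM and the 792 still include *mt-Atp8*, which lies between the ends of the copied stretch. The 5 protein-coding genes wholly outside that stretch ran from 443 to 2705 FPKM, with a median of 1214 FPKM. The mitochondrial share of recovered fragments, 1.92%, was 3.96% of summed FPKM, 2.07% without the 10 most abundant genes, 2.06% over genes with a whole multiple and 1.98% with nuclear copies added. In summed FPKM the shares of the classes were 87.2%, 7.70% and 5.09%, and the tRNA share of fragments was 0.121% without *mt-Tp*. The number of tRNA genes detected, 15, was 7 at 10 FPKM.

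The ratio of mitochondrial to nuclear medians, for fragments not divided by length, was 28.8 in complex I, 33.5 in complex III, 1.98 in complex IV and 0.532 in complex V, where its direction turned around and the cause was not tested. Without overlapping genes it was 50.3 in complex I and 57.7 in complex IV, and complex V had no value, as both of its genes share bases. With the copies added it was 7.64 in complex IV and 3.27 in complex V. The other 15 of 39 values stayed within the counting interval, or within 1.5 times for counts. Few fragments lay on most tRNA genes and on *mt-Atp8*, whose 11 fragments leave an interval of 1.91 to 6.12 FPKM. The part of depth, short length and overlap with other genes in these low counts was not tested.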
